A study of Homo sapiens with 2 samples.

Results

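JAK-STAT signalling was followed through 9 genes: the Janus kinase JAK1, the transcription factors STAT2 and STAT3, the interferon regulatory factors IRF1, IRF3, IRF7 and IRF9, and the feedback inhibitors SOCS1 and SOCS3. The members were all non-control probes that the array files assign to these genes, with IRF9 listed under its older name ISGF3G. They comprised 17 probes, of which 13 probes of 8 genes had a usable signal; the 4 probes of STAT3 did not. The 8 measured genes were 8 of 19218 genes with a usable signal. RNA came from PC3, an established line from a metastasis of human prostate cancer, cultured with serum. Cells received SUB1 siRNA 1, SUB1 siRNA 2 or Non-T siRNA (a non-targeting duplex) in repeated transfections with a lipid reagent, and RNA was taken 72 h after the first one. SUB1 encodes a nuclear coactivator of transcription. On each of 2 dual-colour Agilent arrays, knockdown RNA was labelled with Cy5 and Non-T RNA with Cy3, with 1 array for each siRNA on 1 slide and no dye swap. The control cells had therefore also been exposed to a duplex RNA and to the reagent, no untransfected culture was analysed here, and it is not stated whether both arrays carried the same Non-T extract.

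As background, type I interferons and interferon-γ bind receptors that carry Janus kinases, and the activated kinases phosphorylate STAT proteins. STAT2 and IRF9 are subunits of a complex, ISGF3, that binds interferon-stimulated response elements (ISRE), whereas STAT dimers bind palindromic STAT sites. IRF3 and IRF7 switch on interferon genes once receptors for foreign nucleic acid have been engaged, IRF1 is itself induced by interferon-γ, and SOCS1 and SOCS3 bind receptors and kinases and shut signalling off. Most of these proteins are controlled by phosphorylation, which an RNA array does not measure.

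The promoters of 3 members are shown because they hold one of the 2 motifs searched for on either strand, an ISRE core of the letters GAAANNGAAA or a STAT site of the letters TTCNNNGAA, in which N is any base. The windows are RefSeq promoters of build GRCh38.p14, 250 bases before to 50 bases after the start of the gene, 5′ to 3′ along the gene, and capitals mark the match.
IRF1, chr5:132490724-132491023, minus strand: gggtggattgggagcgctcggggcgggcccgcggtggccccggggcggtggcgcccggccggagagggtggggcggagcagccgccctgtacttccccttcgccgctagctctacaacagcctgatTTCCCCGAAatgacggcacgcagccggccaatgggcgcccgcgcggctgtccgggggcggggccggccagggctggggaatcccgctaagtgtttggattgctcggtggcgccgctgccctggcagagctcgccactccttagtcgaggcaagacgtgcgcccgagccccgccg
IRF9, chr14:24161015-24161314, plus strand: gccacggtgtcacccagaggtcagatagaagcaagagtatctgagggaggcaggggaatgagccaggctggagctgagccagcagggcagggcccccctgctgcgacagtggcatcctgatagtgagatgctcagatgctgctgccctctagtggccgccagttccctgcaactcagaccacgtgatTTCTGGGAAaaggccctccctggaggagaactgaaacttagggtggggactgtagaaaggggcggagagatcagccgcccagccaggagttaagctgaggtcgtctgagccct
SOCS1, chr16:11256155-11256454, minus strand: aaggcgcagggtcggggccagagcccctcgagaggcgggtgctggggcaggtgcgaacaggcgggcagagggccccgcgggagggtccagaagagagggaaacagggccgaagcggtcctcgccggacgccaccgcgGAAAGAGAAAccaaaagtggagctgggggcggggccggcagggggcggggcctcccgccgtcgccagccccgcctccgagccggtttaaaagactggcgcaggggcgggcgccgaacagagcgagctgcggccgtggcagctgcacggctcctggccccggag

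IRF1 held a STAT site from base -124 to base -116 relative to its start, IRF9 held a STAT site from -63 to -55, and SOCS1 held an ISRE core from -113 to -104. The listed windows of STAT2, STAT3, JAK1 and SOCS3 held neither set of letters. IRF3 and IRF7 are named only. Over all 35116 promoters of the same length, 3.57% held the ISRE core and 7.66% the STAT site. Over the 58 promoters of 50 interferon-stimulated target genes described further on, the shares were 62.1% and 27.6%. A match is a run of letters and was not tested as a binding site.

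Each array held 45015 spots, of which 43376 belonged to genes and covered 41000 probes, and 25673 probes passed the filter on dim signals (on each array, at least 0.5 of a probe's spots had to be well above background in one or both channels). No gene spot was saturated. SUB1 itself gave log2 ratios of -3.30 with siRNA 1 and -3.26 with siRNA 2, and all 4 of its probes were lower on both arrays. Epithelial markers of the cell type were measured, with KRT8, KRT18, EPCAM and CDH1 well above background. VIM, a mesenchymal marker, was well above background too. Of 10 markers of blood, endothelial, stromal and red cells, 5 had a probe that passed the filter. These were CD14, CD3E, PECAM1 and COL1A1, well above background in Cy3, and VWF, which was not. COL1A1, a collagen of stromal cells, had log2 ratios of 0.66 and 0.45, and its part in the results was not tested. PTPRC, ACTA2, COL1A2 and HBB were among those that did not pass. With 1 array for each siRNA, a ratio for one siRNA has no biological replicate. Its technical error is given as the error that the scan software assigned to the log2 ratio, which was at least 0.204 for every probe used. The SD between 10 spots of the same probe was smaller, with medians of 0.078 (siRNA 1) and 0.074 (siRNA 2) over 209 such probes.

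None of the 8 measured members reached the 2-fold change that defined a changed gene in the methods of the study. At that rule, 0.208% of all genes were higher and 0.609% lower with siRNA 1, and 0.614% were higher and 1.07% lower with siRNA 2. With 1 probe per gene, the highest ratios belonged to IRF9, the DNA-binding subunit of ISGF3, at 1.46-fold with siRNA 1 and 1.53-fold with siRNA 2, but a second SOCS3 probe was higher on both arrays (log2 0.67 and 1.03). IRF9 with siRNA 2 was also the one member at least 1.5-fold changed. With the mean of all probes of a gene, that one member was SOCS3, at log2 0.75, and IRF9 lay at 0.34. On this array 3.51% of all genes were that much higher and 4.23% that much lower. With siRNA 1, 2.43% of all genes were at least 1.5-fold higher and 3.02% lower, and 0 of 8 members were either. The mean of both siRNAs was tested against 0 with limma across all genes. The test passed 0 of 8 members at an adjusted p of 0.05, against 0.0052% of all genes, which was SUB1 alone, and under 5 of the 11 alternatives in processing it passed no gene. At an unadjusted p of 0.05 it passed 1 of 8 members, IRF9, and 4013 of 19218 genes.

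The ratios of the members differed between the siRNAs. Their median log2 ratio was -0.078 with siRNA 1 and 0.38 with siRNA 2, beside 0.024 and 0.024 over all genes. Of the 8 members, 6 had a higher ratio with siRNA 2 than with siRNA 1, and the median difference was 0.29, beside -0.0021 over all genes, of which 49.6% were higher with siRNA 2. The negative median with siRNA 1 turned to 0.087 when the arrays were centred on their median in place of loess, a scaling that placed the median of all genes at 0.13 on that array. With the same scaling, the share of 2-fold genes that were higher became 71.0% in place of 25.5% for siRNA 1, and 72.5% in place of 36.5% for siRNA 2. The software's own processed signals gave 72.4% and 67.9%, and the authors' own ratios gave 36.7% and 47.4%.

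**Figure D1:**
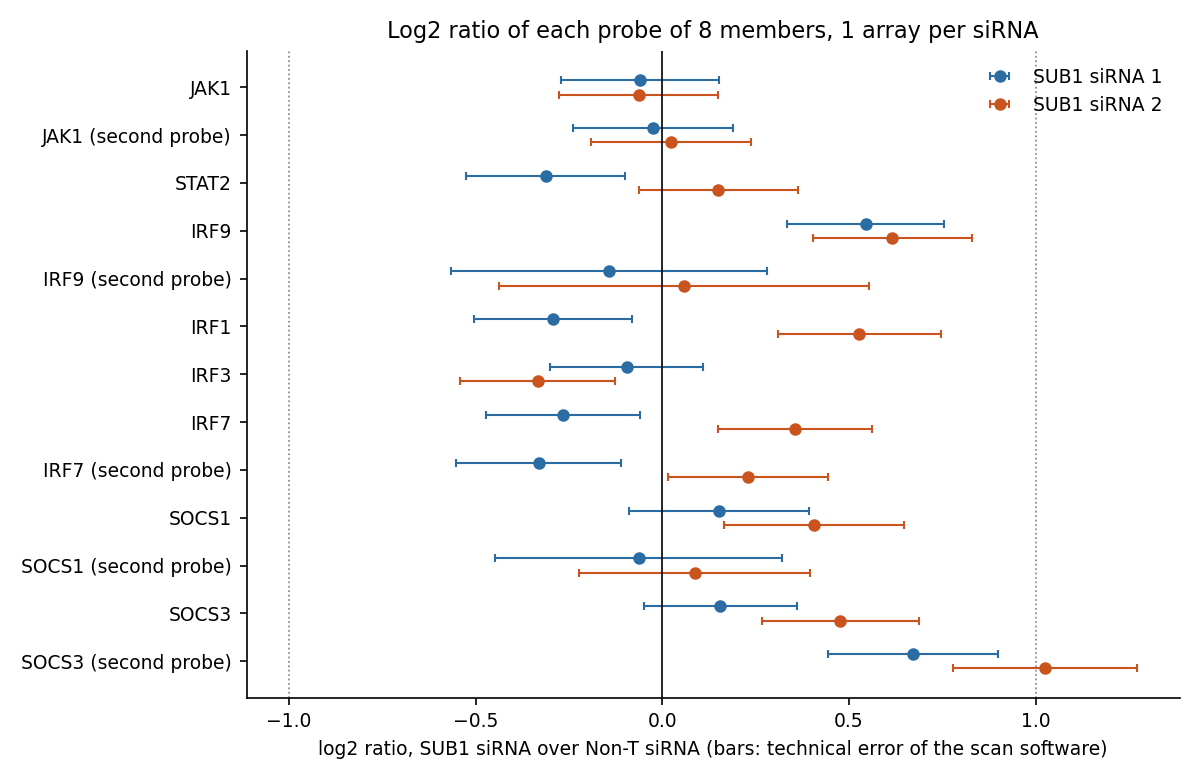
Log2 ratio of knockdown over control (x axis) for each of the 13 probes of 8 members (y axis), 1 point per array, with the technical error of the scan software as bars and dotted lines at 2-fold. IRF1, STAT2 and, except with median centring, IRF7 lie on opposite sides of 0 with the 2 siRNAs, IRF9 lies above 0 with both on its first probe, and the control signal of the second IRF9 probe was not well above background.

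JAK1 is the kinase shared by the receptors of all interferons and of the interleukin-6 family, and its ratios lay within technical error of 0 with both siRNAs. The normalized log2 level, on a scale that is comparable between arrays for 1 probe, was 7.80 (Cy3) and 7.74 (Cy5) with siRNA 1, and 7.81 and 7.74 with siRNA 2. The log2 ratios were -0.061 ± 0.21 and -0.064 ± 0.21 (software error, 1 array each). Their mean was -0.062 ± 0.094 (limma adjusted p = 0.735). Errors of means, here and below, are moderated SEs from limma, which draw the spread between both siRNAs towards that of all genes. The JAK1 probe that gave these ratios lies at hg18 chr1:65074458-65076233, a span longer than the oligonucleotide. A second JAK1 probe, at chr1:65105209-65105268, gave -0.025 and 0.023. Both probes stayed within 0.1 of 0 with either siRNA.

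STAT2, the subunit of ISGF3 that carries its activation domain, was measured by 1 probe at hg18 chr12:55023322-55023381. Its log2 level was 7.91 (Cy3) and 7.60 (Cy5) with siRNA 1, and 7.70 and 7.85 with siRNA 2. The control was the higher channel with siRNA 1 and the lower one with siRNA 2. The log2 ratios were -0.31 ± 0.21 and 0.15 ± 0.21, so that the siRNAs differed by 0.46 ± 0.30 (software error of both arrays). The mean of -0.082 ± 0.14 did not pass the test (limma adjusted p = 0.775).

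STAT3, the main transcription factor of interleukin-6 and its relatives, gave no usable signal. Its 4 probes, one of them spotted 10 times, lie at hg18 chr17:37719449-37719508, chr17:37727910-37727969, chr17:37727930-37727989 and chr17:37793006-37793065. Their mean Cy3 spot signals ran from 78.6 to 106.5 over both arrays. In Cy3, 153 negative control spots had a median of 86.5 (siRNA 1) and 78.6 (siRNA 2), and no STAT3 spot was well above background in Cy3. In Cy5, 0.3 of the 10 spots of the repeated probe were well above background with siRNA 1 and 0.1 with siRNA 2, and the other 3 probes had none. No ratio is given for STAT3. As background, PC3 has been described as lacking STAT3 through a deletion on the long arm of chromosome 17; the arrays measured RNA and the locus itself was not tested.

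The probes of the protein-coding genes on either side of STAT3, ordered by a RefSeq gene table, were read in the same way. Of the next genes on one side, STAT5A had 0 of 2 probes past the filter, STAT5B 1 of 2 and GHDC 0 of 2. On the other side, CAVIN1 had 1 of 2, with neither probe well above background in Cy3, and ATP6V0A1 had 0 of 1. The ATP6V0A1 probe was well above background in both channels on the siRNA 1 array and in neither on the siRNA 2 array. Farther out, HCRT had its probe at a Cy3 signal of 1362 to 1550, NAGLU at 177 to 197 and COASY at 526 to 661, and HSD17B1 had all 5 probes past the filter. KCNH4 passed in Cy5 only. STAT5A and STAT5B are STATs of the same pathway, best known downstream of growth hormone and prolactin, and only 1 probe of STAT5B was well above background in Cy3 on both arrays.

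**Figure D2:**
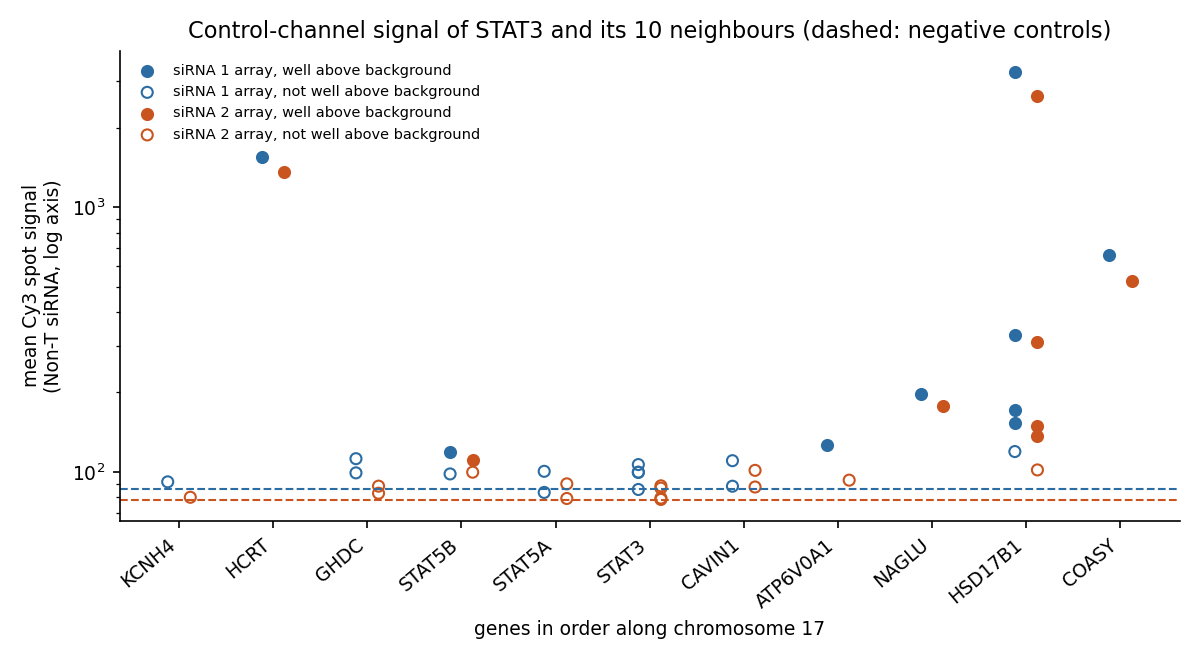
Mean Cy3 spot signal in Non-T control cells (log axis) of every probe of STAT3 and of the 5 genes on each side, in order along chromosome 17, with filled points well above background, open points not, and dashed lines at the median of the negative controls. All STAT3 points are open and lie between 78.6 and 106.5, while HCRT, NAGLU and COASY have filled points on both arrays.

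IRF9 joins STAT2 in ISGF3 and gives the complex its DNA contact. Its first probe lies at hg18 chr14:23705340-23705399. The log2 level was higher in Cy5 than in Cy3 on both arrays, at 9.24 and 9.79 with siRNA 1 and 9.29 and 9.91 with siRNA 2. The ratios of 0.54 ± 0.21 and 0.62 ± 0.21 differed by 0.072, which is less than the software error of that difference, 0.30. Among the probes that stood for the members, this was the one whose ratio exceeded its software error in the same direction on both arrays. Its mean was 0.58 ± 0.096 (unadjusted p = 0.0026), and the limma adjusted p was 0.113 and ran from 0.071 to 0.219 over the alternatives tried. Knockdown RNA was in Cy5 on both arrays, so a dye bias of this probe and the knockdown cannot be told apart. A second probe, at chr14:23706007-23706066, gave -0.14 ± 0.42 and 0.058 ± 0.50. Its Cy3 spot was not well above background on either array, so these values give no fold. The promoter with the STAT site shown above belongs to this gene.

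IRF1, a transcriptional activator that interferon-γ induces, had the largest difference between the siRNAs of any member. On its 1 probe, at hg18 chr5:131847341-131847400, the log2 level was 7.93 in Cy3 and 7.64 in Cy5 with siRNA 1, and 7.82 in Cy3 and 8.35 in Cy5 with siRNA 2. The levels on the siRNA 2 array minus those on the siRNA 1 array were -0.10 in the control and 0.72 in the knockdown. The ratio was -0.29 ± 0.21 with siRNA 1 and 0.53 ± 0.22 with siRNA 2, a difference of 0.82 ± 0.30. A difference of at least 1.5-fold in favour of siRNA 2 was found in 2 of 8 members, IRF1 and IRF7, and in 2.95% of all genes. Over the alternatives the IRF1 difference ran from 0.72 to 1.01. Its mean over both siRNAs, 0.12 ± 0.22, did not pass the test (limma adjusted p = 0.784).

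IRF7, the amplifier of type I interferon production that interferon itself induces, had the same order of values on 2 probes. The first, at hg18 chr11:602643-602702, had a log2 level of 13.47 in Cy3 and 13.21 in Cy5 with siRNA 1, and of 13.30 and 13.65 with siRNA 2. Its ratios were -0.27 ± 0.21 and 0.36 ± 0.21, a difference of 0.62 ± 0.29. The second, at chr11:604499-604820, gave -0.33 ± 0.22 and 0.23 ± 0.21, a difference of 0.56 ± 0.31. Both probes were below the control with siRNA 1 and above it with siRNA 2. The sign with siRNA 1 depended on the scaling, since median centring gave 0.077 for the first probe; the difference between the siRNAs ran only from 0.59 to 0.65. The mean of 0.045 ± 0.17 did not pass the test (limma adjusted p = 0.903).

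IRF3, which is present before infection and is activated by phosphorylation, went the other way. Its probe, at hg18 chr19:54855892-54857070, had a log2 level of 9.02 in Cy3 and 8.93 in Cy5 with siRNA 1, and of 9.08 and 8.75 with siRNA 2. The ratios were -0.095 ± 0.20 and -0.33 ± 0.21, and with median centring the first was 0.096. IRF3 was the lowest member with siRNA 2 and, with JAK1, one of the 2 members that were not higher with siRNA 2 than with siRNA 1. Its difference of -0.24 was smaller than its software error of 0.29. The mean was -0.21 ± 0.11 (limma adjusted p = 0.334).

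SOCS3, the inhibitor that interleukin-6 signalling induces through STAT3, was above the control on both probes and both arrays. The first probe, at hg18 chr17:73864722-73864781, had a log2 level of 9.47 in Cy3 and 9.63 in Cy5 with siRNA 1, and of 9.49 and 9.96 with siRNA 2, with ratios of 0.16 ± 0.21 and 0.48 ± 0.21. The second, at chr17:73866154-73866213, gave 0.67 ± 0.23 and 1.03 ± 0.25, so that the size of the SOCS3 ratio depended on the probe. On the second probe alone siRNA 2 would pass the 2-fold rule. The first probe stood for the gene because it had the higher signal, and its mean was 0.32 ± 0.12 (limma adjusted p = 0.243). The difference between the siRNAs was alike on both probes, at 0.32 ± 0.29 and 0.35 ± 0.34, close to its own software error.

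SOCS1, which blocks JAK kinase activity and is the main brake on interferon receptors, had 2 probes in which the ratio again depended on the probe. The first, at hg18 chr16:11255885-11255944, had a log2 level of 6.98 in Cy3 and 7.13 in Cy5 with siRNA 1, and of 6.96 and 7.36 with siRNA 2, with ratios of 0.15 ± 0.24 and 0.41 ± 0.24. The second, at chr16:11256444-11256503, gave -0.063 ± 0.38 and 0.087 ± 0.31, and its Cy3 spot was not well above background on the siRNA 1 array. The difference between the siRNAs, 0.25 ± 0.34 on the first probe, was within the software error. The mean was 0.28 ± 0.11 (limma adjusted p = 0.257).

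Both channels of each array were compared to see on which side the siRNAs differed. Over all genes, the SD of the difference between the arrays was 0.12 in Cy3, which carried Non-T RNA on both, and 0.31 in Cy5. For IRF1 the Cy3 difference was -0.10 and the Cy5 difference 0.72. For SOCS3 they were 0.013 and 0.33, and for SOCS1 -0.020 and 0.23. For STAT2 they were -0.21 and 0.25, and for IRF7 -0.18 and 0.44. In these 5 genes the Cy5 difference was the larger one. In STAT2 and IRF7, the control level was lower on the siRNA 2 array by more than 1 SD of all genes, and for STAT2 that made up a large part of its 0.46. JAK1 moved by less than 0.01 in both channels. The median over the members was -0.0073 in Cy3 and 0.24 in Cy5.

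**Figure D3:**
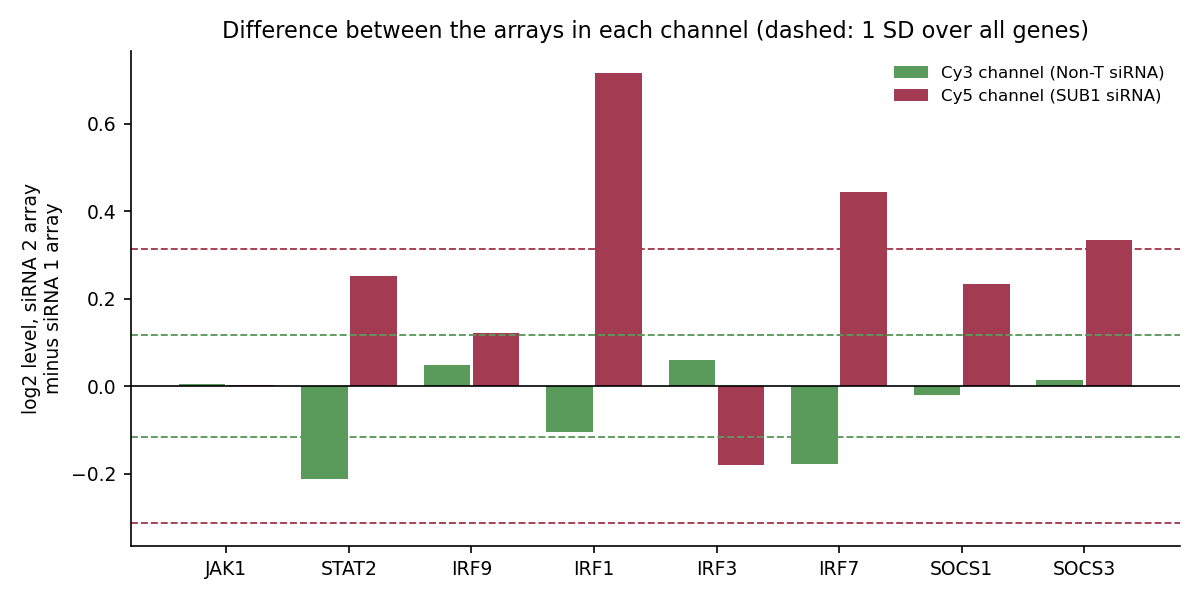
Normalized log2 level on the siRNA 2 array minus that on the siRNA 1 array (y axis) for each measured member, in Cy3 (Non-T control RNA) and Cy5 (SUB1 knockdown RNA), with dashed lines at 1 SD over all genes in the channel of that colour. IRF1 has the tallest Cy5 bar, 0.72, and STAT2 and IRF7 have Cy3 bars below the lower dashed Cy3 line.

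The genes whose pair of ratios lay nearest to that of IRF1, by distance over the 2 arrays, were RTN4R, COL27A1, SAMD9, FUT1 and CEP135. Their ratios lay between -0.32 and -0.28 with siRNA 1 and between 0.52 and 0.55 with siRNA 2. SAMD9, at -0.28 and 0.52, is itself an interferon-stimulated gene and one of the target genes below. A likeness over 2 values is weak, and nothing is said of shared control.

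The rest of the pathway was read from 74 genes in 8 lists by role, of which 73 were on the array and 59 were measured. Of the 59, 5 (IFNB1, IFNE, IFNL1, SOCS4 and IKBKE) were not well above background in Cy3 on at least 1 array. They are counted here, though a ratio without a control signal gives no fold. The median ratios of all 59 were 0.040 with siRNA 1 and 0.11 with siRNA 2, and the median difference was 0.090. No gene of these lists passed the test on the mean of both siRNAs. By the 2-fold rule, 2 of 59 genes were higher with siRNA 2 and 0 were changed with siRNA 1; by the 1.5-fold rule, 3 were higher and 1 lower with siRNA 2, and 1 was higher and 3 were lower with siRNA 1. The shares of all genes past that rule, given above, were 3.51% and 4.23% with siRNA 2 and 2.43% and 3.02% with siRNA 1. The lists were chosen with earlier results of these arrays known.

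Both 2-fold changes fell among the 14 kinases and adaptors upstream of IRF3 and IRF7. IFIH1 (MDA5), a cytosolic sensor of long double-stranded RNA, had ratios of 0.24 with siRNA 1 and 1.37 with siRNA 2. TLR3, the endosomal receptor for double-stranded RNA, had 0.040 and 1.13. DDX58 (RIG-I), the sensor of short RNA duplexes, lay at -0.49 and 0.46. These 3 RNA sensors were the only ones of the 14 genes at least 1.5-fold higher with siRNA 2 than with siRNA 1. The share over all genes was 2.95%. CGAS, a sensor of DNA on the same list, lay at -0.11 and 0.011. The adaptor TRAF3 had the reverse order, 0.55 and -0.43, and the kinase IRAK1 was low with both, at -0.64 and -0.47. DDX58, CGAS, TRAF3 and IRAK1 were picked out after their values were seen.

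Among the cytokines, 7 of 14 genes were measured. IL6, the interleukin that signals through STAT3, had the widest difference, with ratios of -0.76 and 0.93, a Cy3 difference of 0.071 and a Cy5 difference of 1.76. LIF, a relative of IL6 that was picked out after its values were seen, was low with both siRNAs, at -0.71 and -0.84. Of the interferons themselves, picked out after their values were seen, IFNL2 was well above background in both channels, with 0.096 and 0.26. IFNB1, IFNE and IFNL1 were well above background in Cy5 and not in Cy3 on both arrays. The lowest signal called well above background was 76.2 and 74.7 in Cy5, but 108 and 98.3 in Cy3. Detection in Cy5 alone therefore does not set knockdown apart from control. Their ratios of 0.11 and 0.37 (IFNB1), 0.39 and 0.071 (IFNE) and -0.059 and 0.016 (IFNL1) give no fold. IFNA2, IFNG, IFNK and IFNL3 did not pass the filter, and IFNA1 had no probe matched to it. Of the 13 receptor chains measured none was 1.5-fold changed, and the largest ratio was that of OSMR, the oncostatin M receptor, at -0.53 and -0.29. JAK3, the kinase of the common gamma chain, had 0.24 and 0.34.

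Of the other STATs, 4 of 5 were measured, and none was 1.5-fold changed with either siRNA. Of the other IRFs and their partners, IRF2BP2, a corepressor that binds IRF2, had 0.73 and 0.14. SOCS2, the inhibitor of growth hormone signalling, had -0.15 and -0.46. PTPN2, a phosphatase that acts on Janus kinases and STATs, had 0.38 and 0.46. Of the 9 measured negative regulators outside the SOCS family, 9 were above 0 with siRNA 1 and 8 with siRNA 2, beside 54.1% and 53.6% of all genes, and none was 1.5-fold changed. Of the ratios above 0, only those of PTPN1 and PTPN2 exceeded 0.204, the lowest software error of any probe used. The signs of the others lay within technical error.

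The list of 50 interferon-stimulated target genes, all measured, holds genes known to be switched on by ISGF3 and the IRFs. This list, too, was chosen with earlier results of these arrays known. Its median was -0.032 with siRNA 1 and 0.63 with siRNA 2. Of its 50 genes, 48 were higher with siRNA 2 than with siRNA 1, beside 49.6% of all genes. With siRNA 2, 12 passed the 2-fold rule and 28 the 1.5-fold rule upwards, beside 0.614% and 3.51% of all genes. Downwards, 1 passed the 1.5-fold rule, beside 4.23% of all genes. With siRNA 1 none was 2-fold changed, and 2 were at least 1.5-fold higher and 3 lower, beside 2.43% and 3.02% of all genes. The negative siRNA 1 median turned to 0.20 with median centring and 0.063 in the authors' table. RSAD2 (viperin), an antiviral enzyme, had 0.051 and 2.42, RTP4 had 0.67 and 2.01, and IFIT2, which binds viral RNA, had -0.028 and 1.99. No target gene passed the limma test on the mean. Between the siRNAs the target genes differed by a median of 0.72. The 8 members differed by a median of 0.29, from -0.24 for IRF3 to 0.82 for IRF1. IRF9, the subunit that binds the ISRE, differed by 0.072. What lies behind these differences was not tested.

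**Figure D4:**
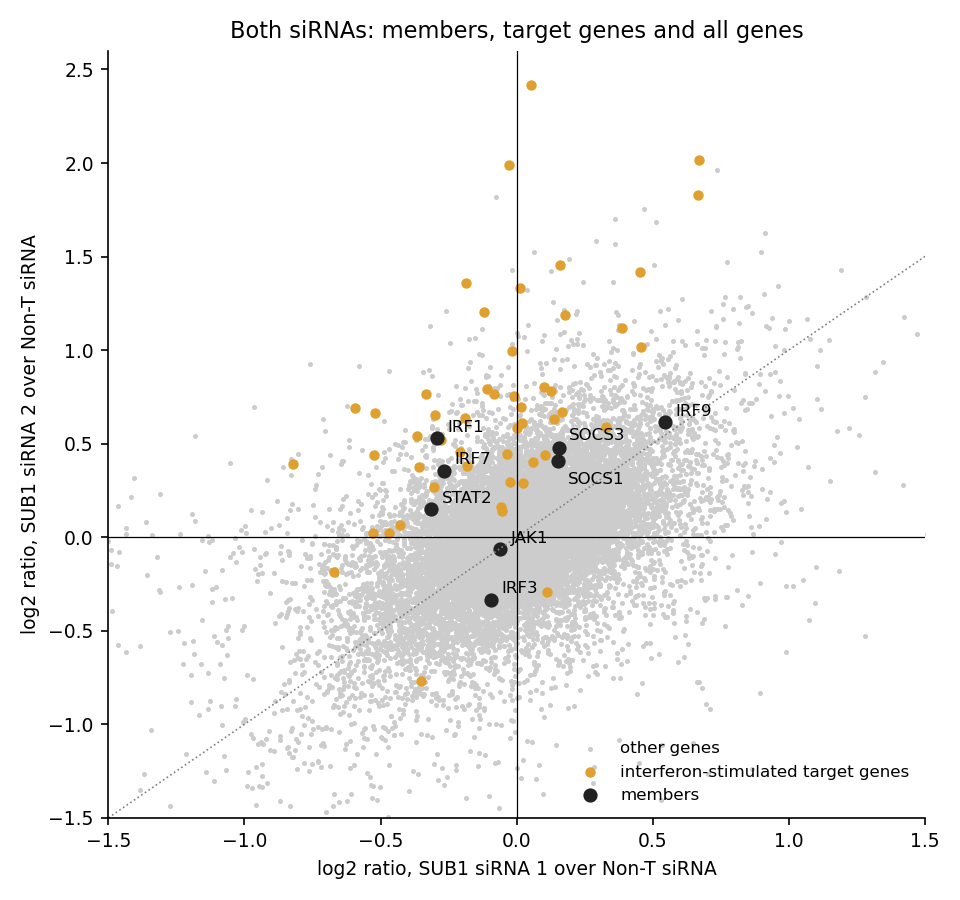
Log2 ratio with SUB1 siRNA 1 (x axis) against SUB1 siRNA 2 (y axis) for the 8 members, the 50 interferon-stimulated target genes and all other genes, with a dotted line where both are equal; 69 genes lie outside the axes. IRF9 lies near the line at 0.54 and 0.62, and IRF1, at -0.29 and 0.53, lies above the line among the target genes.

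**Figure D5:**
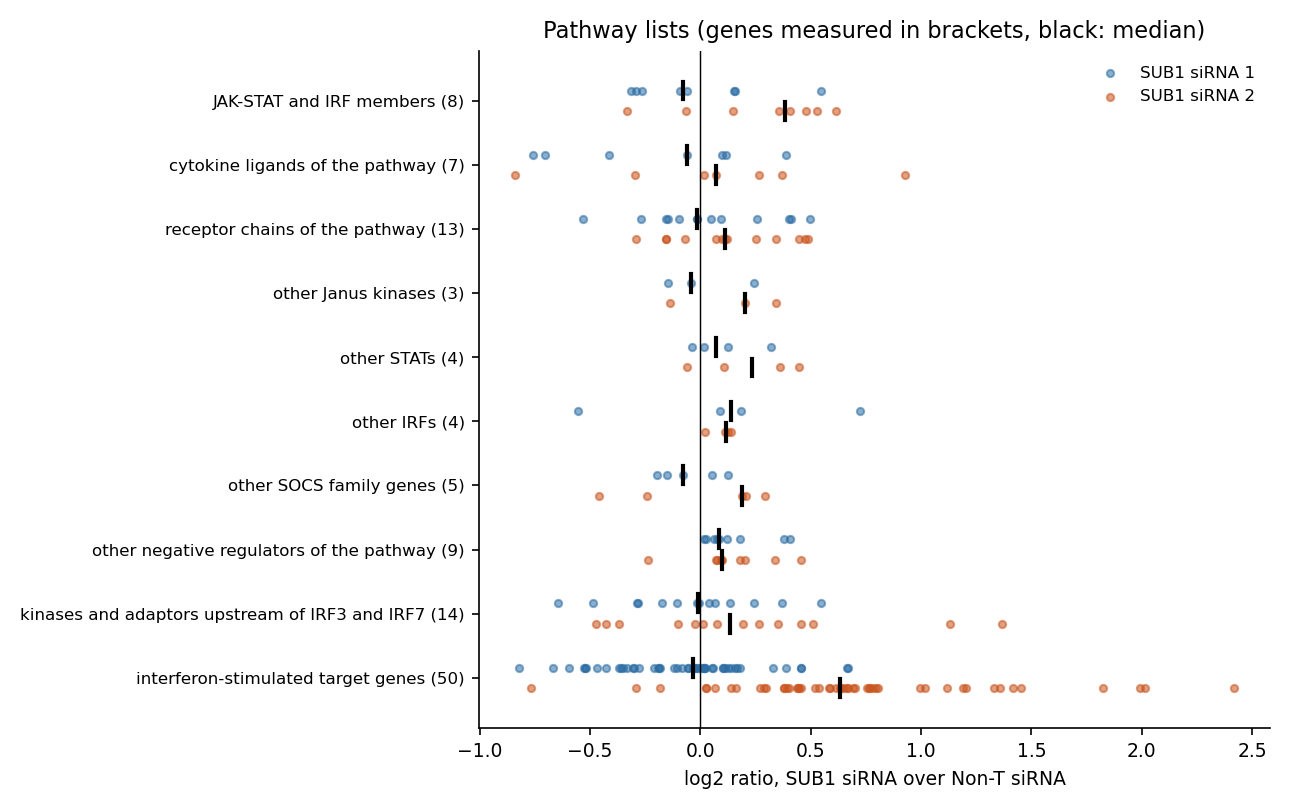
Log2 ratio of knockdown over control (x axis) of every measured gene of the members, the 8 pathway lists and the target list (y axis, number measured in brackets), for both siRNAs, with the median as a black bar. The target genes have medians of -0.032 and 0.63, and the pathway lists together 0.040 and 0.11.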

How the data were processed

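The authors quantified the arrays with Agilent Feature Extraction 9.5.1.1 and deposited, for each spot, the mean signal intensity and local background in both channels, background flags, a log10 ratio (looked at, not used) and the error of that ratio (used as a score of technical error, turned to the log2 scale). A table of the authors' log2 ratios per probe, normalized by loess with the R package agilp per the methods, served as an alternative. Its direction and scale were settled against Cy5 over Cy3 of the scanner files (Pearson correlation across probes 0.958 and 0.970, slope 1.01 and 1.02, column medians -0.0055 and -0.0069).

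Mean signals were corrected by normexp with offset 50, control spots were dropped, and loess with a span of 0.3 normalized each array (limma 3.58.1, R 4.3.3). Outlier spots were left out (112 and 100), spots of a probe were averaged, and the probe with the highest mean signal stood for a gene. Channel levels came from quantile normalization of the A values between arrays. Of 19218 genes, 13129 were named through a RefSeq table. The mean of both siRNAs was tested with lmFit, eBayes and Benjamini-Hochberg adjustment over all genes. Its SEs and p-values rest on the spread between 2 siRNA arrays, which eBayes draws towards the spread of all genes. They take no account of how control cultures vary, and dye bias and knockdown cannot be told apart in this mean. Having 2 arrays limits the precision. The processing was tested on simulated data.

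Members and lists were chosen with earlier results of these data known. Named genes were all members, SUB1, the 2-fold genes of each pathway list or else the 1 with the largest ratio, the 3 highest target genes with siRNA 2, the 5 genes nearest to the member that differed most between the siRNAs, and the 5 genes on each side of STAT3, apart from 1 named gene whose values are left out here. Probe coordinates are those of the array files (hg18). The alternatives were no background correction, median signals, the software's processed signals, median centring, the authors' ratios, 2 other filters on dim probes, kept outlier spots, the mean of all probes, 2 other priors in eBayes, and each array alone.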

Additional observations from a re-analysis of the deposited data

Results flagged for a closer look

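The log2 ratios of 3 of 8 members had opposite signs with the 2 siRNAs, beside 31.6% of all genes. With 1 array each, the difference was not tested. The difference, siRNA 2 minus siRNA 1, was 0.82 for IRF1 (-0.29 and 0.53), 0.62 for IRF7 (-0.27 and 0.36, the first being 0.077 with median centring) and 0.46 for STAT2 (-0.31 and 0.15). The same held, also untested, for IL6, with a difference of 1.68 (-0.76 and 0.93) and IFIT2, with 2.02 (-0.028 and 1.99). The IFIT2 ratio with siRNA 1 and the STAT2 ratio with siRNA 2 were smaller than their technical errors, so that these signs are not settled. The medians of the members (-0.078 and 0.38, median difference 0.29) and of the interferon-stimulated target genes (-0.032 and 0.63, median difference 0.72) also lay on opposite sides of 0, except with median centring and, for the target genes, in the authors' ratios.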

How the results depend on the processing

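The order of the siRNAs held under the 11 alternatives in processing: the median difference of the members ran from 0.23 to 0.37, 6 or 7 members were higher with siRNA 2, and 0 passed an adjusted p of 0.05. With median centring, the median over all genes was 0.13 (siRNA 1) and 0.12 (siRNA 2) in place of 0.024. This scaling gave member medians of 0.087 and 0.57, pathway medians of 0.15 and 0.28, target medians of 0.20 and 0.90, and 4 members at least 1.5-fold higher with siRNA 2. The software's processed signals gave 3 such members and a pathway median of 0.23 with siRNA 2. Under these settings 72.5% and 67.9% of the 2-fold genes were higher with siRNA 2, in place of 36.5%. The share of all genes at least 1.5-fold higher, 3.51% above, was not computed under them, so these member counts have no background share. The authors' ratios gave target medians of 0.063 and 0.77. The mean of all probes gave a member median of 0.27 with siRNA 2, and ratios of 0.20 and 0.34 for IRF9 and 0.41 and 0.75 for SOCS3. These ratios average both probes of each gene, and the second IRF9 probe was not well above background in Cy3. Why the other settings moved the values was not tested. With either array alone, the mean of IRF1 would be -0.29 or 0.53, that of IRF7 -0.27 or 0.36 and that of STAT2 -0.31 or 0.15, with no test left. No paired analysis was possible because the groups hold 1 array apiece, on which knockdown and control are already set against each other. Dim probes, such as those of STAT3, limit what these arrays show.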
